A study of Mus musculus with 76 samples.

Results

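The genes described here encode the proteins of the cytosolic ribosome in mouse iHPCs, blood progenitors made in culture. They were taken by symbol, as every row of the expression table whose name begins with Rpl or Rps and a number, or is Rplp0 to Rplp2 or Rpsa, without the Rps6k kinases and Rps19bp1. The rule found 89 of the 15192 genes listed. Of these, 77 encode the standard ribosomal proteins, 31 of the small subunit, 43 of the large subunit and 3 of the stalk of the large subunit. A further 6 carry the symbols of paralogues (Rpl22l1, Rpl36al, Rpl3l, Rpl7l1, Rps27l and Rps4y2, now called Rps4l), and 6 carry the symbols of pseudogenes (Rpl31-ps12, Rpl34-ps1, Rplp2-ps1, Rps15a-ps4, Rps15a-ps6 and Rps19-ps3). All 77 standard genes were listed, whereas the paralogues Rpl10l and Rpl39l were not among the rows analysed.

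The study sequenced polyadenylated RNA of 76 single iHPCs, which were sorted after differentiation from pluripotent stem cells in which Runx1, Hoxa9 and Hoxa10, 3 transcription factors, could be switched on. All cells formed 1 group, with no cells lacking the 3 factors to compare them with, and the labels name no clone, culture or animal. The group therefore counted as 1 sample, and no p-value was computed. Correlations over cells are given as descriptions; all genes of a cell share 1 library, its unknown depth and a fixed TPM total, so that a gain in one gene lowers the values of others.

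A ribosome is built from ribosomal RNA and about as many kinds of protein as the family has standard genes, each normally present once, apart from the stalk proteins P1 and P2. The small subunit reads the messenger RNA and the large subunit joins the amino acids. The messages of these genes are abundant and short, and in mammals they begin with a run of pyrimidines, the 5′ terminal oligopyrimidine (TOP) tract, through which the mTOR pathway controls their translation. Loss of 1 copy of several of these genes causes Diamond-Blackfan anaemia in humans, in which the blood-forming marrow makes too few red cells. Mammalian genomes also hold many processed pseudogenes of ribosomal protein genes, whose sequences resemble the spliced message.

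The cells had between 2465 and 5992 genes at 1 TPM or more, with a median of 4182.5. TPM states a gene's share of all transcripts after division by transcript length, and every column has the same total, so sequencing depth is unknown. An exact 0 can be a failed capture. The blood-cell genes fixed as markers were present: all 8 were detected in over 50% of cells, and their summed level ran from 3961 to 13890 TPM with a median of 9122 TPM. Cd34, Cd48, Arhgdib and Coro1a were in all 76 cells. Markers of other cells were lower, but some were present. Of the 4 listed endothelial markers Kdr and Tek reached 1 TPM in no cell, whereas Pecam1 did in 24 cells (highest 333 TPM) and Emcn in 7 (highest 287 TPM). Of the 4 listed stromal markers Col1a1 and Col1a2 reached it in no cell, Sparc in 2 and Pdgfrb in 22 (highest 167 TPM). Of the 2 listed pluripotency markers Pou5f1 reached it in no cell and Dppa5a in 1. The summed level ran from 0 to 333 TPM for the endothelial, 0 to 167 TPM for the stromal and 0 to 49.2 TPM for the pluripotency markers.

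On median, 7.68% of the TPM of a cell belonged to ribosomal protein genes. The lowest cell had 5.10% and the highest 12.4%, a range of 2.43-fold, with an SD of 1.57 percentage points over the 76 cells. The quartiles were 6.64% and 9.04%, so that 50% of the cells lay within a narrow band. Each title carries a letter and a number in the form of a well position, which the labels do not explain. The median was 7.47% in the 37 cells numbered 2 to 6 and 7.97% in the 39 cells numbered 7 to 11. The SD over cells is the spread of single cells and does not measure how precise these medians are. By single number, the medians ran from 6.78% (number 3) to 9.18% (number 11). By letter they ran from 6.72% (H) to 9.31% (F). The ranges of all numbers and all letters overlapped.

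**Figure D1:**
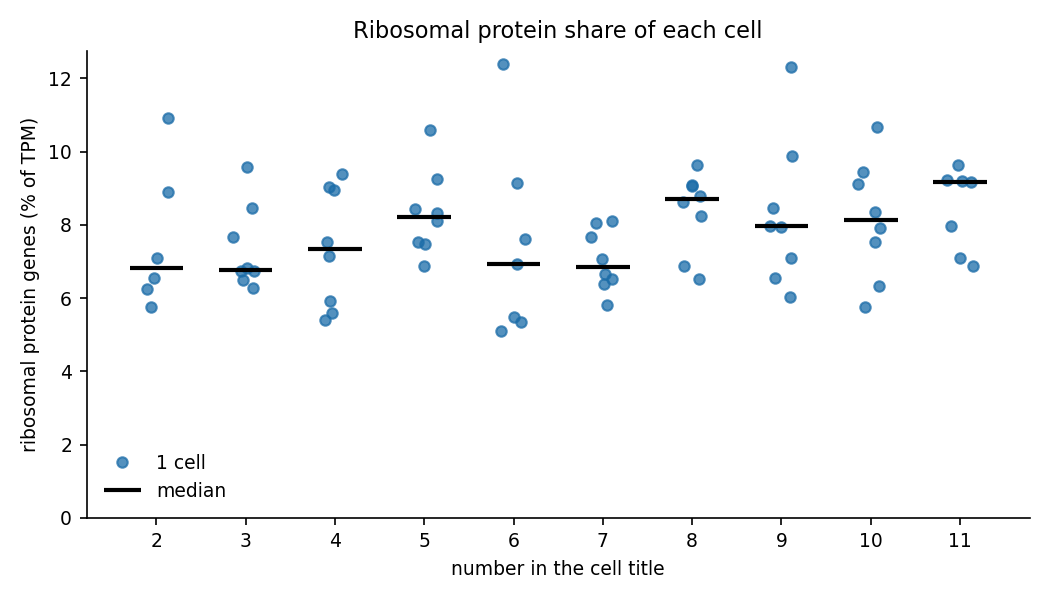
Share of TPM (%) taken by the 89 ribosomal protein genes in each of the 76 cells (points), by the number in the cell title, with the median of each number as a black line. The shares lie between 5.10% and 12.4%, and the cells of different numbers overlap.

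The share had a weak and uneven relation to the number of genes a cell showed. Its Spearman rho with genes detected was -0.20 (Pearson r -0.15), and it was 0.065 among numbers 2 to 6 and -0.39 among numbers 7 to 11. Without the 2 cells farthest from the median share it was -0.19. The 2 highest cells, B6 with 12.4% and D9 with 12.3%, had 4145 and 3905 genes. H6, the lowest with 5.10%, had 3061 genes. Cells numbered 10 and 11, with medians of 3638 and 3792 genes, showed the fewest genes, and their median shares were 8.13% and 9.18%.

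Nearly the whole set was seen in every cell. Of the 77 standard genes, 68 reached 1 TPM in all 76 cells (88.3%), whereas 3.32% of all 15192 listed genes did so. All 77 were detected together in 52 cells, and no cell had fewer than 74. The 9 exceptions were Rpl26 and Rpl7a (66 cells each), Rpl22 and Rps21 (74 each), and Rpl12, Rpl36a, Rpl39, Rps12 and Rpsa (75 each). Rpl7a was listed at exactly 0 in 10 cells, although every cell that makes ribosomes needs its protein.

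The 2 subunits were represented in a nearly constant proportion. The mean TPM per large-subunit gene, stalk included, divided by the mean per small-subunit gene had a median of 0.80 and an SD of 0.061 over cells, between 0.69 and 0.99. Taking the median gene of each subunit instead of the mean gave 0.64, which lies outside that SD but keeps the small-subunit genes higher. This ratio did not follow the ribosomal protein share (rho -0.04) or genes detected (rho -0.02). Small-subunit genes took a median of 3.40% of TPM (2.22% to 5.52%) and large-subunit genes with the stalk took 4.12% (2.64% to 6.42%).

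Individual members were far from equal in level, although their proteins are needed in equal number. Their median TPM spanned 61-fold, and the 90th percentile (1985 TPM) was 9.18 times the 10th (216 TPM). The median gene stood at 1064 TPM in the small subunit, 978 TPM in the stalk and 585 TPM in the large subunit. The 10 highest genes together took 32.9% of the ribosomal protein TPM of a cell and the 10 lowest took 2.06%. TPM adjusts for length, and transcript length had little relation to level among the members (Spearman 0.16 over 77 genes).

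At the top stood Rpl35, a protein near the exit of the peptide tunnel, with a median of 3409 TPM (lowest cell 2088, highest 5529). Rps18, part of the head of the small subunit, had 3213 TPM (1149.8 to 4719), and Rpl13 had 3160.0 TPM (1862 to 5784). Even the lowest cell for each of these was above the median of most members. Rps14, whose human counterpart is lost in the 5q- form of myelodysplastic syndrome, followed with 2771 TPM (1230.1 to 5031). Rps19, the gene most often mutated in Diamond-Blackfan anaemia, had 2318 TPM (1383 to 3758). Rpl32 had 2231 TPM (1139.6 to 3988). Also among the 10 highest were Rplp0, the base of the stalk that recruits the elongation factors (2219 TPM, 656 to 6198), Rpl4, which lines the peptide tunnel (1829 TPM, 414 to 3292), and Rpl10, which joins the large subunit late in its assembly (1603 TPM, 494 to 3454). The other stalk genes were lower than Rplp0, with a median of 978 TPM (201 to 2140.3) for Rplp1 and 630.0 TPM (95.2 to 1615) for Rplp2.

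At the bottom stood Rpl22, which in mice is needed for the development of alpha-beta T cells, with a median of 55.9 TPM (lowest cell 0.417, highest 301). Rps15a had 60.3 TPM (8.09 to 179), Rpl7a 78.2 TPM (0 to 451) and Rpl26 85.1 TPM (0 to 702). Rpl26 and Rpl7a thus ranged from 0 to the level of an ordinary member. Rpl21 had 88.4 TPM (13.2 to 203), Rps12 135 TPM (0 to 590.1) and Rpl17 140.0 TPM (10.6 to 419). Rps21 (209 TPM, 0 to 769), Rpl27a (221 TPM, 8.56 to 793) and Rpl30 (273 TPM, 38.5 to 729) completed the 10 lowest. Several of these have very many copies in the genome: counting annotated genes that each hold at least 20% of the 31-base words of the member's transcript, Rpl21 has 41 copies, Rpl7a 38, Rps12 21 and Rpl17 16. Over all 77 members, however, the part of a transcript's words found elsewhere did not track its level (Spearman -0.07), and its median was 57% in the 10 lowest and 55.5% in the 10 highest. How reads shared with such copies were assigned is not given in the sources used here.

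**Figure D2:**
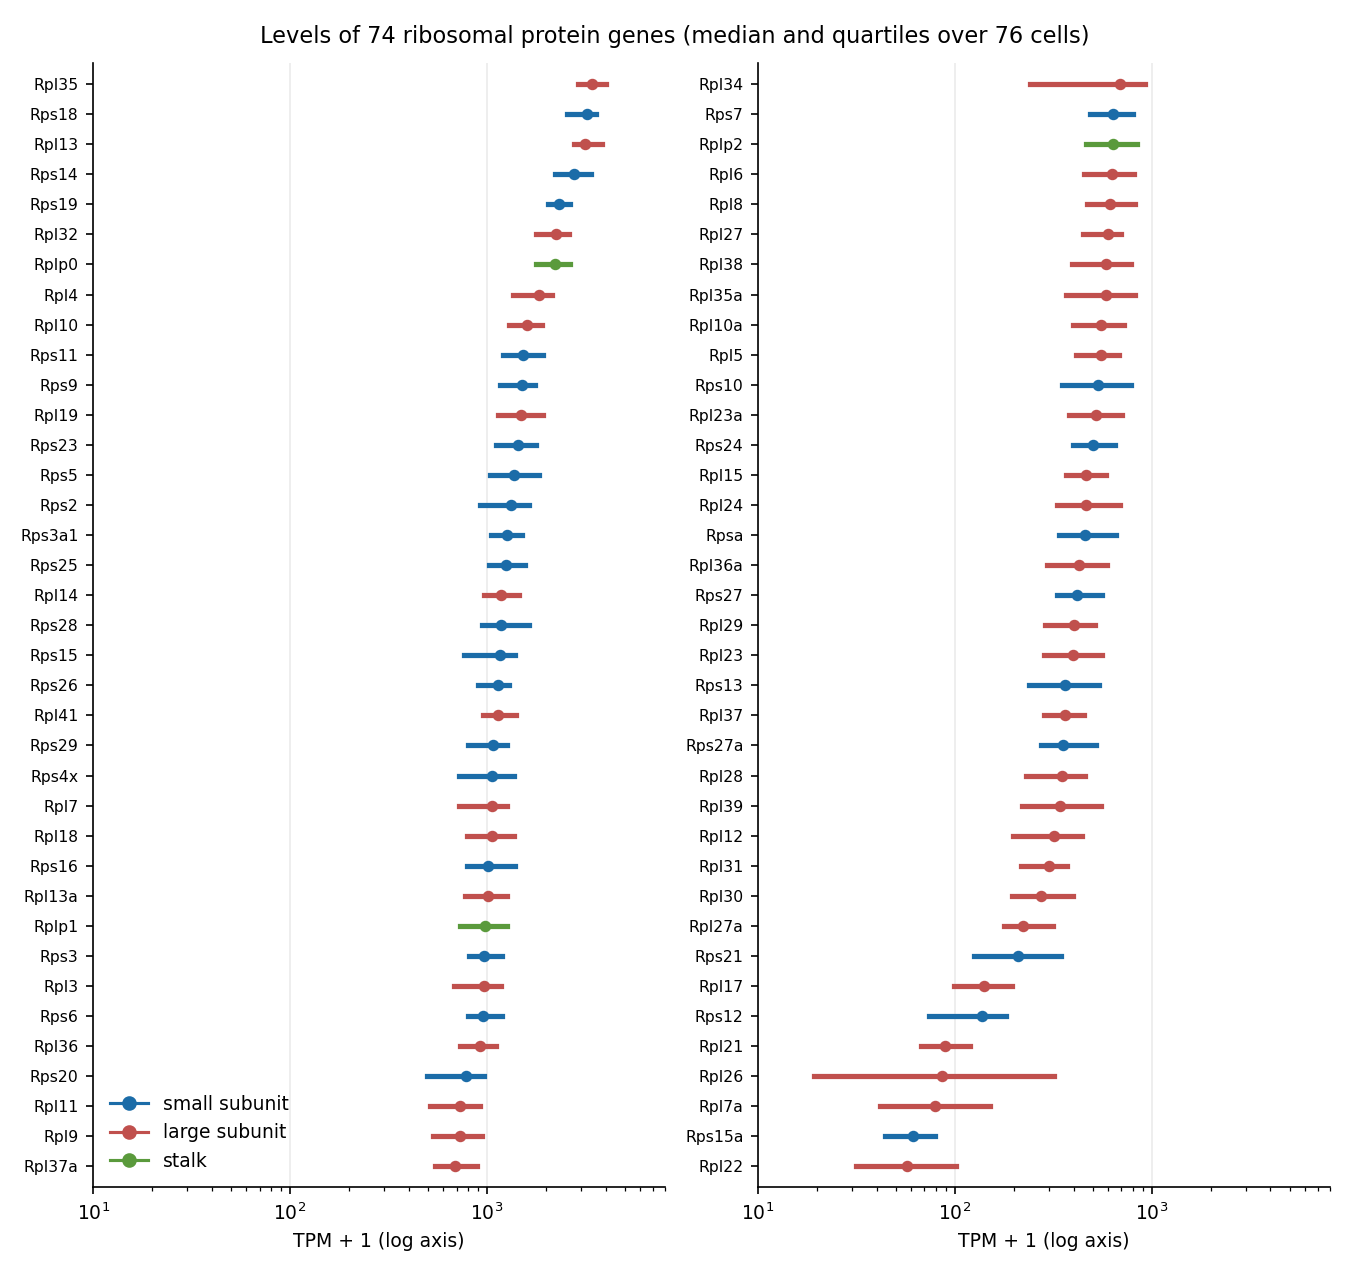
Level of 74 of the 77 standard ribosomal protein genes in TPM + 1 (log axis), with the median (point) and the quartiles (bar) over 76 cells, in order of level and coloured by subunit. Medians run from 3409 TPM for Rpl35 to 55.9 TPM for Rpl22, and the bars of Rpl26 and Rpl34 are the widest.

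The order of the members was much the same in each cell. The Spearman rho between a cell's 77 levels and the median levels of the other 75 cells had a median of 0.90, between 0.75 and 0.96. This agreement was higher in cells with more genes detected (rho 0.64 over 76 cells, which share the measure of a well-captured library) and had little relation to the ribosomal protein share (rho 0.15).

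Ribosomal protein genes varied together from cell to cell. For each member, its log2(TPM + 1) was set against the mean of the other 76, and a member counted as in step at a rho of 0.3 or more. By this measure 72 of the 77 (93.5%) were in step, whereas 5.72% of the 3424 other genes detected in 50% of cells or more reached 0.3 with the mean of all 77. The median rho was 0.49 for the members and -0.01 for the other genes. The in-step members were 29 of 31 in the small subunit, 40 of 43 in the large subunit and 3 of 3 in the stalk. In the cells numbered 7 to 11 alone the count was 56, and in those numbered 2 to 6 it was 71.

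**Figure D3:**
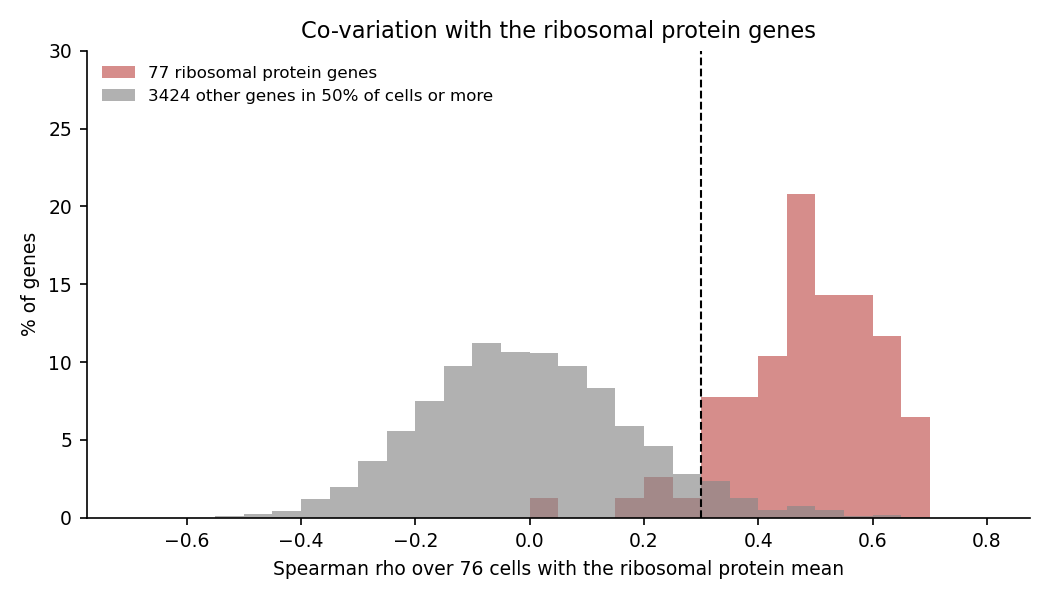
Distribution of Spearman rho over 76 cells between a gene and the ribosomal protein mean (% of genes per bin of 0.05), for the 77 members, each against the mean of the others, and for 3424 other genes. The dashed line marks 0.3; 93.5% of members and 5.72% of other genes lie at or above it.

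Pairs of members were alike in this. The mean rho over all 2926 pairs was 0.26, whereas it was 0.0084 over all pairs of the 3511 genes detected in 50% of cells or more. A rho of 0.3 or more was reached by 39.9% of member pairs and by 1.3% of all such gene pairs, and 97.2% of member pairs were positive. Genes of the 2 subunits were as close to each other (0.26) as genes within the small (0.27) or the large subunit (0.25), so no block of one subunit separated from the other. Among the tightest pairs were Rps19 with Rpl35 (0.65), Rpl32 with Rpl35 (0.65), and Rpl13 with Rpl35 (0.64), each between genes of the 10 highest. Abundant members also kept closer to the rest: level and the SD of a member's log2 difference from the mean of the others had a Spearman correlation of -0.74 over 77 genes. Level and rho with the rest were barely related (0.16).

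The members closest to the rest came from both subunits and the stalk. Rpl14 led, with a rho of 0.69 (0.63 in numbers 2 to 6 and 0.76 in numbers 7 to 11) and a median of 1180.3 TPM (346 to 2795). Rpl38, whose loss of 1 copy disturbs the patterning of the axial skeleton in mice, had a rho of 0.68 and 585 TPM (32.4 to 1960.0). Rps28 had a rho of 0.66 and 1173 TPM (485 to 2614). Next came Rplp2, an acidic protein of the stalk (0.65), Rpl27 (0.65) and Rps20 (0.65). Among genes mutated in Diamond-Blackfan anaemia, Rps19, Rps7, Rps10, Rps24, Rps26, Rpl5, Rpl11 and Rpl35a were in step, from a rho of 0.44 for Rpl11 to 0.58 for Rps26 and Rpl35a. Since 93.5% of the whole set was in step, this is no feature of these genes.

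Promoter sequences of the 3 closest members and of the 3 least in step are shown to compare their starts. Each line gives 50 bases before and 20 bases from the annotated start, taken from RefSeq (GRCm38.p6) on the gene's own strand. Capitals mark the longest run of C and T beginning with C within 20 bases on either side of the start. The windows are chr9:120571467-120571536 (plus strand) for Rpl14, chr11:114668530-114668599 (plus) for Rpl38, chr17:33824543-33824612 (minus) for Rps28, chr3:90213629-90213698 (minus) for Rps27, chrX:74270766-74270835 (plus) for Rpl10 and chr14:18270967-18271036 (minus) for Rpl15.
Rpl14: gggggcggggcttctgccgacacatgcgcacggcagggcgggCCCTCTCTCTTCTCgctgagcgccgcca
Rpl38: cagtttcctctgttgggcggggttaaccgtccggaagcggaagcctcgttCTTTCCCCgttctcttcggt
Rps28: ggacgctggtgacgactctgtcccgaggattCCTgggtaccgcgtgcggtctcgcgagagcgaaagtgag
Rps27: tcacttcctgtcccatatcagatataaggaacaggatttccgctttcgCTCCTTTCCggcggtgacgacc
Rpl10: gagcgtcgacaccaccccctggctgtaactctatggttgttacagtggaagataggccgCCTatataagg
Rpl15: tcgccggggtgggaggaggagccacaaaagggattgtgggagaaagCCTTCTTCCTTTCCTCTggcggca
The runs are 14 bases long in Rpl14, 8 in Rpl38, 3 in Rps28, 9 in Rps27, 3 in Rpl10 and 17 in Rpl15. These lengths rest on the annotated start of each gene, which was not checked. A short run here does not show that a message lacks the TOP tract. Long and short runs thus occur among both the members in step and those least in step.

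Over the family the pyrimidine run was common. A window of 250 bases before to 50 after the start was found for 57 of the 77 members and for 27025 gene symbols in all. A run of at least 8 within 20 bases of the start, on the gene's strand, was present in 28 of the 57 (49.1%) and in 14.5% of all symbols. An annotated start at a C followed by at least 4 pyrimidines, which can be part of the same run, was present in 13 (22.8%) and in 3.01%. The letters CCGGAA, the core of sites for ETS-family factors, occurred on either strand in 32 members (56.1%) and in 16.7% of all symbols. CACGTG, the E-box that Myc binds, occurred in 6 members (10.5%) and in 8.09% of all symbols. AAGATGGCG, a YY1 motif, occurred in 3 members (5.26%) and 1.64%, and TATAAA in 6 (10.5%) and 15.7%. The median rho with the rest was 0.49 for members with the run of 8 and 0.49 for those without it, and 0.47 with CCGGAA and 0.52 without. For the start at a C it was 0.55 with and 0.49 without (13 members with it). For CACGTG it was 0.60 and 0.49 (6 members), for AAGATGGCG 0.58 and 0.49 (3), and for TATAAA 0.47 and 0.51 (6). These sets are small, and no difference was tested. A match describes the letters of these windows and is not a bound site.

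Only Rps27 was out of step, with a rho under 0.1, where 72.6% of other genes lay. Rps27, a zinc-binding protein of the small subunit, had a rho of 0.04 with the other members (Pearson r 0.01), and 0.05 in numbers 2 to 6 and 0.08 in numbers 7 to 11. It was present in all cells at 130.4 to 895 TPM, with a median of 416 TPM, and its rho was negative with 24 of the 76 other members. Against the log2 of the summed TPM of the others its rho was 0.17, so that no member was then under 0.1. Rpl10 (0.19), Rpl15 (0.22), Rpl9 (0.24) and Rps9 (0.28) lay between 0.1 and 0.3. Rpl15 differed between the 2 sets of cells, with 0.42 in numbers 2 to 6 and -0.01 in numbers 7 to 11, and in the second set Rpl6 (0.03) and Rpl10 (0.09) were under 0.1 as well. Just inside the threshold of 0.3 were Rpl26 (0.31), Rpl34 (0.32), Rpl7a (0.32), Rpl31 (0.32) and Rps3a1 (0.33).

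The members that departed most from the mean of the others on the log2 scale were Rpl26 (SD of the difference 2.82), Rpl7a (2.43), Rpl34 (1.63), Rps21 (1.52), Rpl36a (1.46), Rps12 (1.46), Rpl22 (1.3) and Rpl39 (1.21). The median member had 0.60. Of these 8, 6 were at exactly 0 in at least 1 cell, which widens a log2 difference, whereas Rpl34 and Rpl22 were never at 0.

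Rps27, Rpl34 and Rpl26 share most of their sequence with a listed copy. Rps27 has the retrogene Rps27rt, listed under its older symbol Gm9846 and so outside the rule. Rpl34 has Rpl34-ps1, and Rpl26 has Gm15772, an annotated processed pseudogene. Coding stretches of 60 bases are shown to make plain how little tells the copies apart, with the bases that differ from the member in capitals. They come from the GENCODE M21 transcripts (GRCm38), on the gene's strand. For Rps27 they begin at the start codon, and for the others they are placed around the first difference. The genes lie at chr3:90212522-90213651 (Rps27, minus), chr9:114982366-114982739 (Rps27rt, minus), chr9:66946086-66949516 (Rps27l, plus), chr3:130726831-130730398 (Rpl34, minus), chr6:71124610-71124963 (Rpl34-ps1, plus), chr11:68901583-68906989 (Rpl26, plus) and chr5:3236431-3236868 (Gm15772, plus).
Rps27: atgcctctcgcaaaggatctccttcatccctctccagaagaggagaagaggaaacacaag
Rps27rt: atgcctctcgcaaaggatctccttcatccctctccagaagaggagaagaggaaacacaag
Rps27l: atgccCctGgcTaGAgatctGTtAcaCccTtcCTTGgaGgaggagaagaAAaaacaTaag
Rpl34: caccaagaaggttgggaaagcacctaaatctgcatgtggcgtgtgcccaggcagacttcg
Rpl34-ps1: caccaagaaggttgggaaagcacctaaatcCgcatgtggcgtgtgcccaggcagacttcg
Rpl26: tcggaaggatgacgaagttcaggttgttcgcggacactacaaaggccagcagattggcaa
Gm15772: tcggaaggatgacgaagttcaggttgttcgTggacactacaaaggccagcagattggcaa
The 252 coding bases of Rps27 are matched without a difference in Rps27rt (100% identity) and differ at 57 positions from Rps27l (77% identity). Rpl34-ps1 differs from Rpl34 at 2 of 351 coding bases, and Gm15772 from Rpl26 at 2 of 435. Of the 31-base words of the whole transcript, Rps27rt holds 98.7% of those of Rps27, Gm15772 69.8% of those of Rpl26 and Rpl34-ps1 58.2% of those of Rpl34. The division of reads within each pair is therefore uncertain, and the single values below are those of the deposited table.

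Rps27rt was listed far above its parent. It had a median of 1466 TPM (449 to 2937), was above Rps27 in 76 of 76 cells, and followed it closely (rho 0.79, Pearson r 0.82). Rps27 made up 13.5% to 30.9% of their sum, with a median of 22%. The sum had a rho of 0.17 with the other members, so it lay between 0.1 and 0.3 rather than in step. Rps27l, the paralogue that differs in sequence and that p53 induces in human cells, behaved otherwise: it had a median of 1383 TPM (262 to 3146), was above Rps27 in 73 cells, and was in step with a rho of 0.67. Rps27l and Rps27 themselves were unrelated (rho 0.05).

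Rpl34 and its pseudogene divided the cells. Rpl34 ran from 33.9 to 1591 TPM (median 686) and Rpl34-ps1 from 26 to 1797 TPM (median 315), and they moved in opposite directions (rho -0.44, Pearson r -0.58). Rpl34 held under 20% of the pair's sum in 20 cells, 20% to 50% in 3 cells and 50% or more in 53 cells, so few cells lay in between. The 20 cells were unevenly placed: 6 of the 7 cells numbered 11 and 5 of the 9 cells lettered G were among them, whereas every other number had at most 3. The sum varied much less than either part, with an SD of 0.56 on the log2 scale against 1.68 for Rpl34 and 1.52 for Rpl34-ps1, and its rho with the other members was 0.28.

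Rpl26 and its copy did not move in opposite directions as the Rpl34 pair did, and the copy was on top. Gm15772 had a median of 768 TPM (72.1 to 2353) and was above Rpl26 in 75 of 76 cells. Rpl26 held under 20% of the sum in 46 cells, 20% to 50% in 29 cells and more than 50% in 1 cell. The 2 were unrelated (rho 0.07), but each was positively related to the other members (Rpl26 0.31, Gm15772 0.50), and their sum more so (0.58). On the log2 scale the SD was 0.75 for the sum, 0.76 for Gm15772 and 2.90 for Rpl26. Gm15772 is thus listed at the level of an ordinary member of the family, and Rpl26 is among the lowest of the 77.

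**Figure D4:**
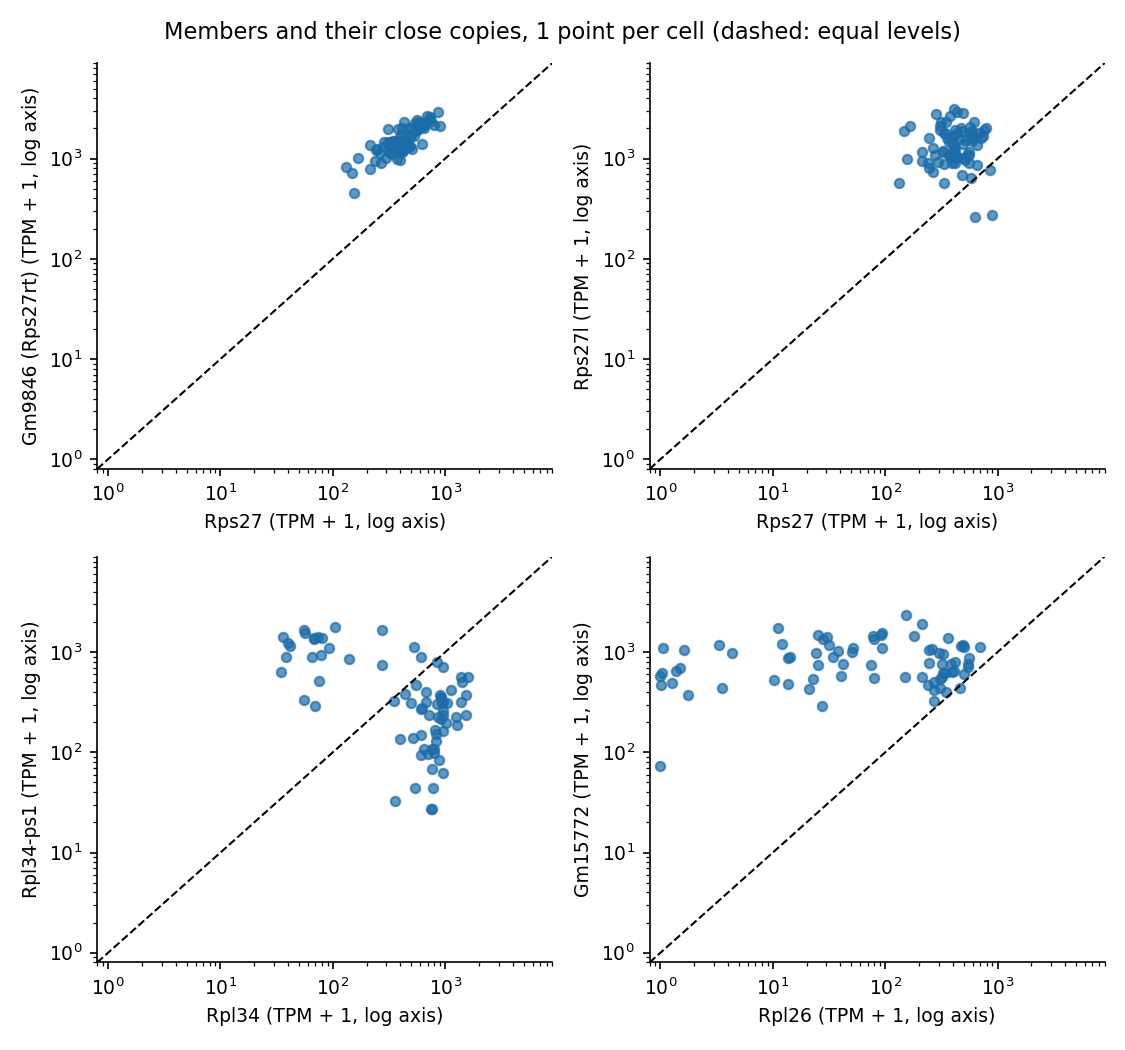
Levels in each of the 76 cells (points; TPM + 1, log axes) of 3 members against their near-identical copies, and of Rps27 against its more distant paralogue Rps27l. Gm9846 (Rps27rt) lies above Rps27 in 76 cells, Rpl34-ps1 lies above Rpl34 in 23 cells and below it in 53, and Rpl26 spreads from 0 to 702 TPM while Gm15772 stays above it in 75 cells.

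Most other copies were below their parents. At least 16 listed genes outside the 77 hold 20% or more of a member's 31-base words. Of these 16, 5 were found by the rule and 11 listed under other names, and 9 were detected in every cell. Large overlaps were not confined to Rps27, Rpl34 and Rpl26. Wdr89, detected in 6 cells, holds 76.5% of the words of Rplp2. Rpl31-ps12 holds 56.7% of those of Rpl31, and Gm12191, detected in 11 cells, 53.1% of those of Rpl30. Rplp2 (rho 0.65), Rpl31 (0.32) and Rpl30 (0.46) were in step with the other members. The search left out 182 listed symbols with no GENCODE name, among them Rplp2-ps1. Rpl37rt (listed as Gm13826; 99.7% identity over the coding bases) had a median of 83.1 TPM and a rho of 0.91 with Rpl37, which held 74% to 86.9% of their sum. Rplp2-ps1 had 44.8 TPM and a rho of 0.88 with Rplp2. The pseudogenes Rps15a-ps6 (8.02 TPM), Rpl31-ps12 (6.76 TPM), Rps15a-ps4 (5.27 TPM) and Rps19-ps3 (4.08 TPM) were near the bottom of the family. The first 2 followed their parents with a rho of 0.82 and 0.71. Only the paralogues Rps4y2 (0.779 TPM) and Rpl3l (0 TPM) had lower medians. BC004004, which holds 38.1% of the words of Rpl21, had 80.4 TPM, close to the 88.4 TPM of Rpl21, and did not follow it (rho 0.13). Reads of a parent and such a copy cannot be told apart with certainty.

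The paralogues named after a member differed from one another. Rpl22l1, which can take the place of Rpl22 in the ribosome, was above it in 69 of 76 cells, with a median of 294 TPM (0 to 866) against 55.9 TPM for Rpl22. Both were in step, Rpl22l1 with a rho of 0.38 and Rpl22 with 0.47, and they were weakly related to each other (rho 0.19). Rpl36al had a median of 809.9 TPM (126 to 2237) and was above Rpl36a in 64 cells. Its rho with Rpl36a was 0.20 over all cells, 0.53 in numbers 2 to 6 and -0.15 in numbers 7 to 11. The coding bases are 70.6% identical between Rpl22 and Rpl22l1 and 87.7% between Rpl36a and Rpl36al, less alike than Rps27 and Rps27rt. Rpl7l1 had a median of 210.2 TPM (0.237 to 772) in 74 cells and did not follow the family (rho -0.05). Rpl3l, a paralogue of heart and skeletal muscle, reached 1 TPM in 2 cells. Rps4y2, annotated as a transcribed processed pseudogene, reached it in 35 cells, with a highest value of 599 TPM, and its rho with the family was 0.05.

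Some proteins of the ribosome are made as fusions or come from genes with other names. Rps27a, which encodes ubiquitin fused to a small-subunit protein, had a median of 352 TPM (10.3 to 1429) and a rho of 0.49. Fau, a ubiquitin-like protein fused to a small-subunit protein, had 586 TPM (118 to 1854) and a rho of only 0.20. Rack1, a signalling scaffold on the head of the small subunit, listed as Gnb2l1, had 1216 TPM (355 to 2518) and a rho of 0.47, with 0.72 in numbers 2 to 6 and 0.08 in numbers 7 to 11.

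Short messages outside the family moved with it in part. The members' median transcript length was 729 bases, against 1915.5 bases for 3178 other genes with an annotated coding transcript. Among the other genes, 27.6% of those of up to 600 bases had a rho of 0.3 or more with the family, and the share declined with each longer class to 2.81% at 1500 to 2500 bases. Over these 3178 genes length and rho had a Spearman correlation of -0.23. The mean of 303 short genes of at most 800 bases had a rho of 0.58 with the family mean, and that of 1082 genes over 2500 bases had -0.19. The members' counts showed no such decline: 27 of 28 were in step in the shortest class, 15 of 18 at 600 to 800 bases and 13 of 14 at 800 to 1000. In the classes of 1000 to 1500 and 1500 to 2500 bases, 11 of 11 and 5 of 5 were. With nearly all members in step, these counts leave little room for a gradient to show. Length and rho with the rest had a Spearman correlation of -0.05 over the 77 members. Among the 102 short genes at or above the members' lower quartile of level, 45 (44.1%) reached 0.3. After the mean of the short genes was regressed out, 62 of the 77 members were in step and the mean pairwise rho was 0.20.

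**Figure D5:**
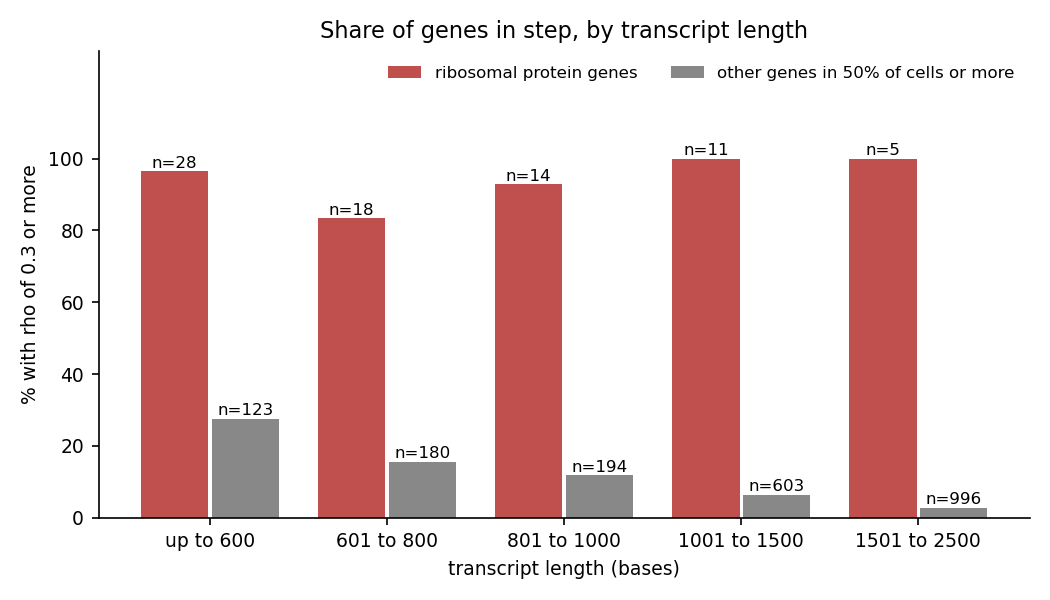
Percentage of genes with a rho of 0.3 or more with the ribosomal protein mean, by transcript length, for the members (each against the others) and for other genes detected in 50% of cells or more, with the number of genes above each bar. Members lie high in every class, and other genes decline from 27.6% in the shortest class to 2.81% in the longest shown.

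The genes outside the rule most like the family, by rho with its mean over 76 cells, began with 2 copies of its own members. These were Gm13826 (0.65), and C330021F23Rik (0.65), a locus with a retroposed copy of Rps23. Then came Snrpg (0.64) and Lsm7 (0.58), small proteins of RNA-binding Sm and Lsm rings, and Uqcr10 (0.64), Atp5g1 (0.63) and Ndufc1 (0.59), subunits of respiratory complexes and of the ATP synthase. Set, a histone chaperone (0.63), and Hspe1, the mitochondrial co-chaperonin (0.60), were also among the first 10. Uqcr10 had a median of 812 TPM (264 to 2085) and Snrpg 652 TPM (0 to 1924), levels within the range of the members. At the other end, 3.94% of other genes had a rho of -0.3 or less. The lowest were the glycolytic enzyme Pkm (-0.54; 4044 TPM, 1818 to 9652), Acap1 (-0.53), Dpf2 (-0.53), Tax1bp1 (-0.49) and Serinc3 (-0.47; 978 TPM, 262 to 2371). Pkm kept its sign in numbers 2 to 6 (-0.55) and 7 to 11 (-0.51).

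Genes that serve translation followed the family only in part. Of 29 translation factors and other TOP-type genes detected in 50% of cells, 9 had a rho of 0.3 or more with the family and none had -0.3 or less. Their median was 0.20. Over all 3424 other genes 5.72% reached 0.3 and 3.94% reached -0.3, and the median was -0.01. The list's median transcript length was 1864 bases, and 2.81% of other genes of 1500 to 2500 bases reached 0.3. That class is matched on length and not on level. Of 348 other genes at or above the members' lower quartile of level (416 TPM), 76 (21.8%) reached 0.3, with a median of 0.09. Some genes of the list were that abundant and others were not, so these shares bracket its background only roughly. Pabpc1, the poly(A)-binding protein (0.55; 125 TPM), Npm1, a nucleolar chaperone (0.46; 1311 TPM), Btf3 (0.44; 511 TPM) and Eef1a1, the main elongation factor (0.36; 2502 TPM), were among the 9. Eif4a1 (0.09; 954 TPM) and Eif3k (0.10; 603 TPM) were not. Over cells the list's mean had a rho of 0.23 with the ribosomal protein share, but 0.48 in numbers 2 to 6 and -0.029 in numbers 7 to 11. It also had a rho of 0.67 with genes detected. With genes detected regressed out of both, the rho with the share was 0.49, and with the mean of the short messages regressed out it was -0.054.

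Of the 72 mitochondrial ribosomal protein genes in 50% of cells, 11 reached 0.3 and none -0.3, and the median was 0.14, beside the 5.72% and the median of -0.01 of other genes. Their median transcript length was 1162 bases, and 6.47% of other genes of 1000 to 1500 bases reached 0.3. Mrpl18 (0.43), Mrpl42 (0.40) and Mrpl33 (0.37) were among them, and Mrpl23 lay at 0.30, just under the threshold. Of 28 ribosome biogenesis genes, 3 reached 0.3 and the median was 0.12, beside the same 5.72% and -0.01. The 3 were Nop10 (0.56), Nhp2 (0.54) and Dkc1 (0.32), of the complex that converts uridine to pseudouridine in ribosomal RNA. Gar1, of the same complex and detected in 40 cells, had 0.13. Nop56 (0.14) and Myc (0.04), which drives ribosome production in many cells, did not. With the share, the mitochondrial list had a rho of 0.14 and the biogenesis list 0.05. Both were positive in numbers 2 to 6 (0.45 and 0.23) and negative in numbers 7 to 11 (-0.064 and -0.14). With genes detected regressed out they were 0.41 and 0.23, and with the short messages regressed out -0.28 and -0.25.

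Few cell-cycle genes were detected in 50% of cells, so a count of them shows little. None of 14 S-phase genes and none of 3 G2 and M phase genes in 50% of cells reached 0.3 in either direction, beside 5.72% of other genes at 0.3 or more and 3.94% at -0.3 or less. The S-phase list had a rho of 0.10 with the share and the G2 and M phase list -0.07. With genes detected regressed out these were 0.26 and 0.041, and with the short messages regressed out -0.077 and -0.31. Pcna, the sliding clamp of replication, had 0.16, Mcm6 0.24, Tipin 0.28 and Slbp -0.01 with the family mean. Of the G2 and M phase genes, the 4 with the highest mean level lay below 0: Ccnb2 (-0.09), Cdc20 (-0.13; 36 cells), Cenpa (-0.12) and Birc5 (-0.08; 26 cells). Most of the 22 genes of that list lay above 0, and the whole list ran from -0.14 to 0.19.

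The lists of introduced factors and of blood markers had a negative rho with the ribosomal protein share. The mean of Runx1, Hoxa9 and Hoxa10 had a rho of -0.35 with it (Pearson r -0.33), and -0.31 and -0.39 in numbers 2 to 6 and 7 to 11, but -0.21 with the short messages regressed out. Runx1, detected in 73 cells with a median of 100.4 TPM (0.304 to 344), had -0.40 with the family mean. Hoxa10, in 28 cells, had -0.29 and Hoxa9, in 18 cells, -0.30; both were at 0 in most cells. Gene-level values do not separate an introduced copy from the chromosomal gene. The 8 blood markers had a rho of -0.40 with the share (-0.29 and -0.51 in the 2 sets of cells, and -0.45 with the short messages regressed out). Of the 8, 2 were at -0.3 or less with the family mean and none at 0.3, beside 3.94% and 5.72% of other genes. Cd34 (-0.45; 666 TPM, 2.05 to 1917) and Arhgdib (-0.36; 3684 TPM, 1603 to 6782) were the 2, whereas Cd48 (-0.29), Coro1a (-0.24), Ptprc (-0.19), Lsp1 (-0.17), Sfpi1 (-0.10) and Lyl1 (-0.07) were nearer 0.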

How the data were processed

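The deposited table holds TPM, which the authors made from the reads of 76 single cells; each column sums to the same total, so depth is unknown and its effect on precision cannot be stated. Named in the submitters' processing notes are the build mm10 and the tools StringTie 1.3.4, HISAT2 2.1.0, SAMtools 0.1.19 and bcl2fastq; their roles, the annotation and the handling of reads with several matches: not given in the sources used here. Per the labels' protocols, the Discover-sc WTA Kit V2 made the cDNA and the TruePrep DNA kit the libraries.

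All 76 columns matched a sample title. With 1 group there was no comparison between conditions and no test. Detection was set at 1 TPM, the pseudocount at 1, and correlations used genes detected in 50% of cells. Named genes were the 10 highest and 10 lowest members by level, the 6 highest and 10 lowest by rho with the rest, the 8 with the largest SD against the rest, all paralogues and fusion genes, the 10 most and 5 least alike genes outside the rule, and up to 4 genes of each other list. Cd34, Pabpc1, Btf3, Dkc1, Gar1, Ptprc, Sfpi1, Lyl1, Rpl6 and the copies were named after their values were seen. The members and lists were chosen with earlier results of these data known. Some genes taken by the rules are not reported here. Copies were found by shared 31-base words (GENCODE M21), and older symbols were matched through RefSeq synonyms. Python 3.11.15, numpy 2.4.6, scipy 1.17.1 and pandas 2.3.3 were used. The correlation procedure was tested on simulated data, with members shuffled across cells and a shared component planted in some. The alternatives tried are given at the end.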

Additional observations from a re-analysis of the deposited data

How the results depend on the processing

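With no test, the limits for a change were 1 SD over cells for a median, 1.5 times for a count and 0.1 for a rho. Of 117 alternative values, 88 stayed within these limits, 29 moved and 0 reversed a rho of at least 0.3 in size. Only the introduced factors (-0.35) and the blood markers (-0.40) had a rho of that size to reverse. A change of sign in any other rho could count only as moved. For the mean pairwise rho, the pseudocount of 0.1 and the lack of a detection filter could not change the value of 0.26. The share, detection, spread of levels, order within cells, mean pairwise rho and count of members in step stayed within the limits throughout. These limits were wide, so staying within them shows little. Among 77 members a count of 72 could not rise by 1.5 times, and its fall to 56 in numbers 7 to 11 counted as no change. The SD over cells, the limit for a median, does not measure how precise that median is. The median share lay between 7.39% (standard genes only) and 8.34% (without the 10 highest genes outside the rule). Detection in every cell lay between 64 (at 10 TPM) and 72 members, the pairwise rho between 0.19 and 0.32, and the count in step between 56 and 72. The large to small ratio was 0.64 with the median gene. Members out of step numbered 4 in numbers 7 to 11, and 0 both against the log2 of the summed TPM of the others and with Rps27, Rpl26 and Rpl34 summed with their copies. The rho of share with genes detected was 0.065 in numbers 2 to 6 and -0.39 in 7 to 11.

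The rho of the share with gene lists depended most on the choices. In numbers 2 to 6 it was 0.48 for translation factors, 0.45 for mitochondrial ribosome, 0.23 for biogenesis, 0.25 for S phase, 0.049 for G2 and M phase and -0.29 for blood markers. In numbers 7 to 11 it was -0.029, -0.064, -0.14 and -0.046 for the first 4 and -0.51 for blood markers. With genes detected regressed out it was 0.49, 0.41, 0.23, 0.26 and 0.041 for the lists from translation factors to G2 and M phase, in the order given. With the mean of short messages regressed out it was -0.054, -0.28, -0.25, -0.077 and -0.31 for those 5 and -0.21 for the introduced factors. In the 65 cells with at least 3500 genes the mitochondrial list reached 0.30. The cause was not tested. The summed copies, the short-message regression, the wider share and the omission of the 2 farthest cells were chosen after seeing the data.

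No paired analysis was possible because the cells form 1 group. Unknown depth limits all low values: a TPM near 0 cannot be told from a missed message, and no interval for a gene's level in a cell can be given.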
